A study of Mus musculus with 4 samples.

Results

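The cells described here are the CD4 T cells of the cerebral cortex in aged mice that carry the APP/PS1 transgenes, a model of amyloid deposition in Alzheimer's disease. The study sorted CD45+ cells, that is all cells of blood origin and microglia, from cortices of 18-month-old mice and counted their RNA with 10x 3′ single-cell libraries. The AD group is APP/PS1. The ADAM group carries APP/PS1 and lacks Axl and Mertk (Axl-/-Mertk-/-), a pair of receptors with which phagocytes bind dying cells. Each genotype has 2 libraries, each from 2 pooled cortices, and the labels name the libraries of a genotype biological replicates. The sex of the mice, the promoter of the transgenes and a control without APP/PS1 are not analysed here, so every cell comes from a plaque-bearing mouse. Values below are given in the order AD 1, AD 2, ADAM 1 and ADAM 2 throughout.

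A cell was counted as a CD4 T cell when the submitters' annotation put it in the class of T and NK cells, at least 1 unique molecular identifier (UMI, 1 counted RNA molecule) of Cd4 and at least 1 of Cd3d, Cd3e or Cd3g were present, and no Cd8a or Cd8b1 UMI was. This rule found 199 cells of 15451, with 124, 26, 33 and 16 cells in the 4 libraries. The same class held 2369 CD8 T cells by the mirror rule, 606 cells with a Cd3 but neither a Cd4 nor a Cd8 UMI, 31 cells with both, and 60 without a Cd3 UMI. Since the members were chosen by Cd4, Cd3 and Cd8, those 6 genes were tested nowhere.

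CD4 T cells recognise peptides on MHC class II through an αβ T cell receptor and help other cells, through surface ligands such as CD40L and through cytokines. They divide into helper states with their own master regulators, T-bet (Tbx21) for type 1, GATA3 for type 2 and Bcl6 for follicular helpers, and into Foxp3+ regulatory T cells, which restrain responses. Few of them enter a healthy brain, where CD8 T cells with a resident memory program are the more common T cell.

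Depth and other cells' RNA set what these 199 cells can show. Their sums held 384839, 98352, 112410 and 60312 UMIs, with a median of 2904 to 3443.5 UMIs per cell, so ADAM 2 rests on 16 cells. In microglia, an Axl UMI was found in 25.6%, 24.6%, 3.11% and 4.17% of cells, lower in both ADAM libraries. Microglial values here include 216 cells, 209 of them in AD 1, that the submitters marked as doublets of microglia and T cells. Mertk stood at 273, 296, 246 and 274 CPM in microglia (a gene's UMIs per 1000000 UMIs of the summed cells), not lower in ADAM. Where the Mertk allele is cut is not stated in the labels, so 3′ counts check nothing for it. ADAM 2 stood apart: an S100a9 UMI, a neutrophil transcript, was found in 1.61%, 11.5%, 0% and 87.5% of CD4 T cells, and in 79.9% of ADAM 2 CD8 T cells, while Ly6g and Cxcr2 were at 0 in all CD4 T cells. The 16 microglial markers summed to 3443, 2450, 4404 and 4394 CPM in the CD4 sums. No cell barcode of a CD4 T cell occurred in a second library, against 24 shared barcodes over all cells.

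CD4 T cells made up 12.1%, 3.14%, 4.87% and 2.17% of the T and NK cells, so AD 1 lay above the other 3 libraries. Exact 95% binomial (Clopper-Pearson) intervals, which cover counting error only, ran from 10.2% to 14.3% in AD 1 and from 2.06% to 4.57%, 3.37% to 6.77% and 1.25% to 3.50% in the others. The means were 7.64% ± 6.36 (SD, n = 2) in AD and 3.52% ± 1.91 (SD, n = 2) in ADAM, a ratio of 2.17 within the spread between AD libraries. The exact two-sided permutation test gave p = 0.667, where 2 against 2 libraries cannot go below 0.3333. In a fit of cell numbers over 11 classes, the log2 difference of ADAM from AD was -1.71 (SE 1.09, edgeR adjusted p = 0.512), and without AD 1 it was 0.23 (adjusted p = 0.847). Whether the genotypes differ in CD4 T cell number was therefore not detectable with these libraries.

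**Figure D1:**
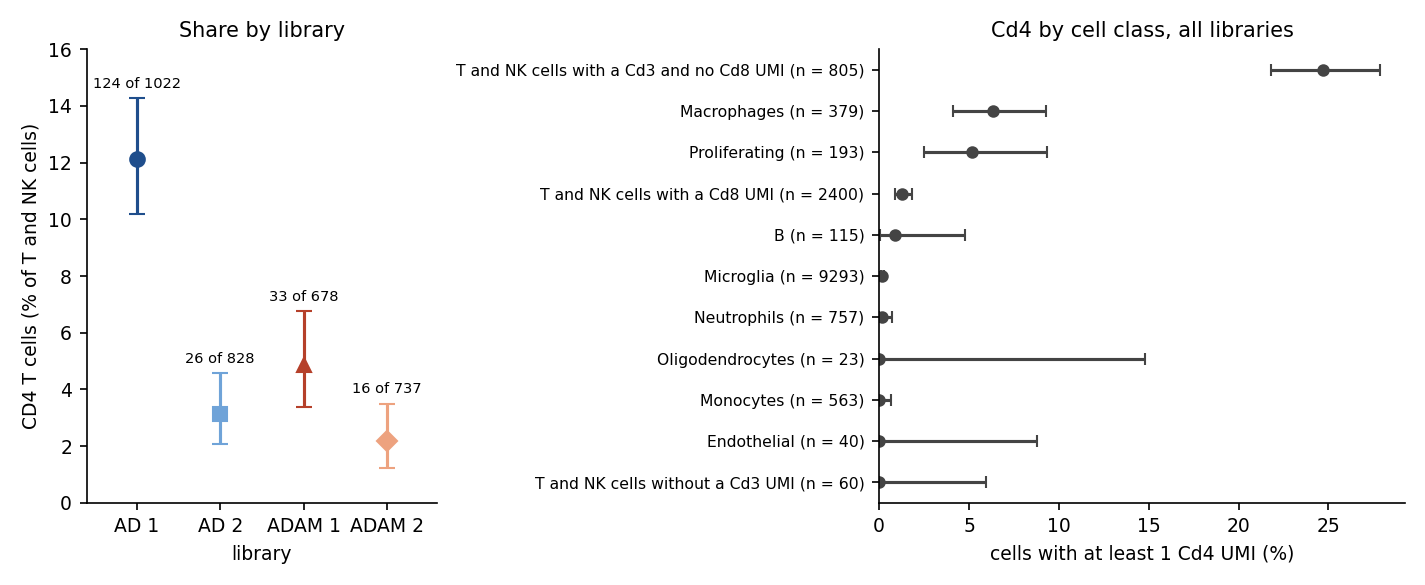
Left, share of CD4 T cells among the T and NK cells of each library, in percent. Right, percent of cells with at least 1 Cd4 UMI in each cell class over all libraries; bars are exact 95% binomial intervals. AD 1, with 124 of 1022 cells, lies above the other 3 libraries, and Cd4 is most frequent in T and NK cells with a Cd3 and no Cd8 UMI (24.7%).

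Cd4 is captured sparsely, and this sets the edge of the population. Of the 199 cells, 116 held 1 Cd4 UMI, 57 held 2 and 19 held 3. Inside the T and NK class, a Cd4 UMI was found in 24.7% of cells with Cd3 and no Cd8 (199 of 805, median 2804 UMIs), in 1.29% of cells with Cd8 (31 of 2400, median 3450.5 UMIs), and in 0 of 60 cells without Cd3. Among other classes it was in 0.151% of 9293 microglia and in 0 of 563 monocytes, which allows a share of up to 0.533% (3 counts of the total, where the exact 95% upper bound is 0.653%), but in 6.33% of 379 macrophages, a type that can express Cd4 itself. The rule also met 9 cells in the proliferating class, 3 macrophages, 3 microglia, all 3 of them annotated as doublets with T cells, 1 neutrophil and 20 cells without a class. These are not counted here.

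Cells on both sides of the threshold are described by genes the rule did not use. Tnfrsf4, which encodes the co-stimulatory receptor OX40, stood at 81.0 CPM in cells with Cd3 and neither Cd4 nor Cd8, at 214 CPM with 1 Cd4 UMI and at 416 CPM with more. Cd40lg, the gene of CD40L, stood at 75.9, 85.0 and 75.6 CPM over the same groups and at 2.38 CPM in CD8 T cells. Cells just outside the rule thus carried Cd40lg within the range of the members. Ccl5, a chemokine gene typical of CD8 effectors, stood at 4124, 5022, 4637 and, in CD8 T cells, 11077 CPM.

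The CD4 label was checked against lineage genes outside the rule by comparing the CD4 and CD8 sums of the same 4 libraries, with the library as a block. Of 8720 genes tested, 295 passed an adjusted p under 0.05, a background of 3.38%, with 105 higher (1.2%) and 190 lower (2.18%) in CD4 T cells. With DESeq2's size factors in place of TMM the split was 116 higher and 100 lower. DESeq2 itself called 51 genes, without AD 1 the count was 66, and over the cell numbers per gene in place of UMIs it was 118. In 4.53% of genes every CD4 library lay above every CD8 library and in 3.21% below. The median over all tested genes was -0.09 on the log2 scale.

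Most CD4 helper genes were higher in CD4 T cells. All 11 tested CD4 lineage genes had a positive fold, with a median of 2.04, and 8 of them passed: Cd28, Cd40lg, Cd5, Ctla4, Icos, Maf, Tnfrsf4 and Trat1. Zbtb7b of the same list was not among those that passed. It stood at 41.6, 10.2, 0 and 16.6 CPM in CD4 and 9.06, 2.26, 5.77 and 6.90 CPM in CD8 T cells. Tnfrsf4 stood at 421, 142, 133 and 133 CPM in CD4 T cells and 8.11, 5.26, 7.35 and 4.60 CPM in CD8 T cells, without overlap, a log2 fold of 4.80 (SE 0.29, adjusted p = 4.2e-56). Its UMIs were found in 46.8%, 23.1%, 33.3% and 18.8% of CD4 T cells, against 1.73% of CD8 T cells and 0.45% of microglia. Cd40lg, whose product licenses B cells and antigen-presenting cells, stood at 85.8, 40.7, 89.0 and 99.5 CPM against 6.68, 0, 0.525 and 2.76 CPM, a log2 fold of 4.59 (SE 0.47, adjusted p = 1.3e-19). In AD 2 no CD8 T cell held a Cd40lg UMI.

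Further members of that group are regulators of activated T cells. Maf, a transcription factor of helper and regulatory states, stood at 434, 264, 178 and 315 CPM against 44.8, 121, 43.0 and 58.5 CPM, a log2 fold of 2.10 (SE 0.19, adjusted p = 1.3e-23), which was lost without ADAM 2 (log2 fold 2.12, adjusted p 0.18). Microglia express Maf too, with a UMI in 69.2% of them. Icos, a co-stimulatory receptor, stood at 166, 102, 107 and 249 CPM against 37.7, 27.1, 32.0 and 23 CPM, and its log2 fold was 2.04 (SE 0.26, adjusted p = 8.6e-13). Ctla4, the inhibitory counterpart of Cd28, stood at 140.3, 81.3, 71.2 and 49.7 CPM against 19.1, 24.8, 15.2 and 20.7 CPM, a log2 fold of 2.08 (SE 0.31, adjusted p = 4.2e-09), which was lost without AD 1 (log2 fold 1.62, adjusted p 0.071). For all 3 genes the lowest CD4 library lay above the highest CD8 library. Cd5, which tunes receptor signalling, had a log2 fold of 1.54 (SE 0.20, adjusted p = 4.3e-12), and its relative Cd6 one of 1.18 (SE 0.20, adjusted p = 6.6e-07).

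**Figure D2:**
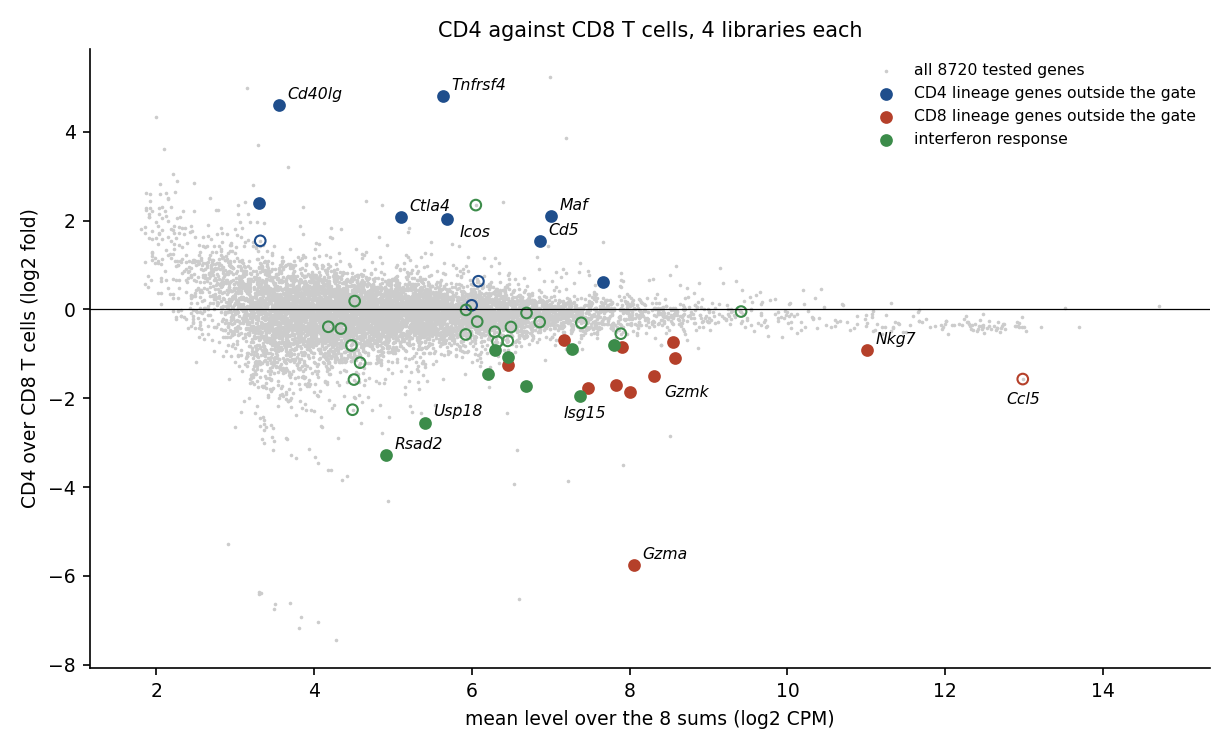
Log2 fold of CD4 over CD8 T cells against the mean log2 CPM over the 8 sums, 1 point per tested gene, with CD4 lineage, CD8 lineage and interferon response genes in colour. Filled symbols passed an adjusted p under 0.05 and open symbols did not. CD4 lineage genes lie above the line and CD8 lineage genes below it.

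Most CD8 lineage and cytotoxic genes were lower. All 12 CD8 lineage genes had a negative fold, with a median of -1.37, and 11 passed. Ccl5 was the exception, at 5192, 7422, 2259.6 and 3316 CPM against 9606, 14172, 10001 and 9650.2 CPM, a log2 fold of -1.57 (SE 0.28, adjusted p = 0.12), although its libraries did not overlap. Of 20 cytotoxic genes, 18 had a negative fold, 14 passed as lower and none as higher. Gzma, granzyme A, stood at 2.60, 0, 8.90 and 49.7 CPM against 462, 339, 98.7 and 465 CPM, a log2 fold of -5.76 (SE 0.34, adjusted p = 1.8e-61), and was found in 3 of the 199 cells. Gzmk, the granzyme of memory-like effectors, stood at 83.2, 183, 169 and 282 CPM against 359, 429, 361 and 299 CPM, a log2 fold of -1.50 (SE 0.18, adjusted p = 1.5e-14). Nkg7, a cytotoxic granule gene, stood at 2183, 1932, 783 and 1144 CPM against 2389, 2699.5, 2261 and 2164 CPM, a log2 fold of -0.92 (SE 0.12, adjusted p = 1.2e-09). The granule gene was thus lower than in CD8 T cells and still found in 91.1%, 88.5%, 72.7% and 100% of CD4 T cells, against 3.63% of microglia.

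Tcrg-C2, Tcrg-C4 and Trgv2, genes of the γ chain of the γδ T cell receptor, were lower than in CD8 T cells. That was not so for the δ constant gene. Tcrg-C1, a further γ constant gene, did not pass and overlapped, at 13.0, 0, 17.8 and 0 CPM against 14.3, 27.1, 13.6 and 10.6 CPM. Tcrg-C2 stood at 23.4, 30.5, 8.90 and 82.9 CPM in CD4 and 245, 482, 189 and 279.9 CPM in CD8 T cells, a log2 fold of -3.50 (SE 0.26, adjusted p = 1.4e-38), and Tcrg-C4 and Trgv2 were lower by 3.17 and 3.85 on that scale. Some of the γ constant genes are near copies of each other, so reads may be split among them. Trdc, the δ constant gene, was found in 3 of 199 CD4 T cells (1.51%, exact 95% interval 0.312% to 4.34%) and in 0.675% of CD8 T cells, and Trdv4, Cd163l1 and Sox13 were at 0. Trac, the α constant gene, was found in 79.9% of CD4 and 81.0% of CD8 T cells. A Trbv segment was seen in 16 cells over 7 of the 16 Trbv genes in the table, at most 4 cells for 1 segment, which is too sparse to describe clones.

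Part of the regulatory T cell list was higher than in CD8 T cells. Of 20 genes in the list, 14 were tested, 11 had a positive fold and 6 passed as higher: Capg, Ctla4, Il2ra, Izumo1r, Tnfrsf18 and Tnfrsf4. Capg, an actin-capping protein, stood at 229, 275, 329 and 199 CPM against 37.7, 26.3, 67.7 and 38.7 CPM, a log2 fold of 2.42 (SE 0.21, adjusted p = 2.8e-28). Tnfrsf18, the receptor GITR, stood at 294, 183, 267 and 232 CPM against 70.6, 80.4, 82.9 and 95.3 CPM, a log2 fold of 1.44 (SE 0.19, adjusted p = 1.4e-11). Il2ra, the high-affinity interleukin 2 receptor chain, had a log2 fold of 2.35 (SE 0.59, adjusted p = 0.0041) and Izumo1r, folate receptor 4, one of 3.2 (SE 0.45, adjusted p = 5.4e-10). The Il2ra call was lost without AD 1 or AD 2 (log2 fold 1.96 to 2.49, adjusted p 0.1 to 0.24). As background, Ctla4, Il2ra, Tnfrsf18 and Tnfrsf4 are also induced when other CD4 T cells are activated.

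Foxp3 itself, the defining factor of regulatory T cells, was found in 0 of 124, 0 of 26, 1 of 33 and 1 of 16 cells. That is 1.01% of all 199 cells, with an exact 95% interval of 0.122% to 3.58%, against 0.0844% of CD8 T cells. A wider rule that also took cells with both Il2ra and Ctla4 found 5 cells, 2.51%. The 0 of 124 in AD 1 allows a share of cells with a Foxp3 UMI of up to 2.42% by the limit of 3 counts, and the exact 95% upper bound is 2.93%. A transcription factor at few molecules per cell can be missed at this depth, so the share of regulatory T cells was not measured by it.

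The other helper states were sparse too. No cell held a UMI of Il17f or Il23r, a pair of type 17 genes, which allows a share of cells with a UMI of up to 1.51% each and does not measure the share of the state. Of 12 genes in the type 17 list, 5 were tested, all 5 had a positive fold and 2 passed as higher, Maf, given above, and Tmem176a. Tmem176a overlapped between the gates, with a mean of 87.9 CPM against 28.4 CPM and a log2 fold of 1.19 (SE 0.32, adjusted p = 0.01) that was lost without AD 2, ADAM 1 or ADAM 2 (log2 fold 0.76 to 1.28, adjusted p 0.06 to 0.63). Bcl6, Cxcr5 and Il21, the follicular genes, were found in 1, 2 and 3 cells. Tbx21 was found in 23 cells, 17, 4, 1 and 1 by library, and Ifng, the type 1 cytokine, in 23 cells, 19, 3, 0 and 1 by library. Neither passed against CD8 T cells, with log2 folds of 0.05 (SE 0.37, adjusted p = 0.99) for Tbx21 and -0.40 (SE 0.31, adjusted p = 0.75) for Ifng. Gata3 was found in 29.8%, 34.6%, 27.3% and 12.5% of cells, stood at 140.3, 132, 116 and 33.2 CPM against 42.4, 53.8, 42.5 and 41.9 CPM, and had a log2 fold of 1.17 (SE 0.25, adjusted p = 0.00034), which was lost without AD 1 (log2 fold 0.94, adjusted p 0.29). Il4, the type 2 cytokine, was found in 3 cells.

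Genes of naive cells, tissue exit and tissue residency gave a mixed picture. Ccr7, a lymph node homing receptor, was found in 2 cells. Cxcr6, a receptor of resident T cells, was found in 82.3%, 73.1%, 54.5% and 81.2% of cells, and in 79.0% of CD8 T cells. Cd69, which holds T cells in tissue, was found in 42.7%, 65.4%, 63.6% and 50%, and Cxcr3, a receptor for interferon-induced chemokines, in 44.7% of all CD4 T cells and 45.0% of CD8 T cells. None of the 3 passed between the gates, with log2 folds of -0.16 (SE 0.13, adjusted p = 0.77) for Cxcr6, -0.17 (SE 0.14, adjusted p = 0.78) for Cd69 and 0.02 (SE 0.18, adjusted p = 1) for Cxcr3. Il7r, the interleukin 7 receptor that sustains memory cells, stood at 416, 661, 658 and 464 CPM against 203, 277, 381 and 256 CPM without overlap, a log2 fold of 0.78 (SE 0.14, adjusted p = 5.2e-06). It was higher in CD4 T cells in every alternative setting run. Of 14 tested naive and central memory genes, 3 passed as higher than in CD8 T cells, Il7r, Klf2 and S1pr1, and none as lower. S1pr1, the receptor with which T cells leave tissue, stood at 96.1, 102, 53.4 and 49.7 CPM against 29.6, 35.3, 35.7 and 19.8 CPM without overlap, a log2 fold of 1.19 (SE 0.30, adjusted p = 0.0042) that was lost without AD 1 (log2 fold 0.98, adjusted p 0.5). Klf2, which drives S1pr1, overlapped between the gates, with a log2 fold of 0.98 (SE 0.24, adjusted p = 0.036) that was lost without AD 1 or ADAM 2 (log2 fold 0.65 to 1.17, adjusted p 0.058 to 0.3). Klf2 stood at 951, 793, 374 and 166 CPM against 250, 269, 315 and 164 CPM, so the gates lay closer in ADAM than in AD. Of 17 tested residency and checkpoint genes, Bhlhe40 and Ctla4 passed as higher and Cd160, Runx3 and Tox as lower. Cd160, a receptor of cytotoxic cells, stood at 0, 40.7, 8.90 and 0 CPM against 116, 94.0, 81.3 and 121 CPM, a log2 fold of -3.93 (SE 0.43, adjusted p = 6.4e-17).

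**Figure D3:**
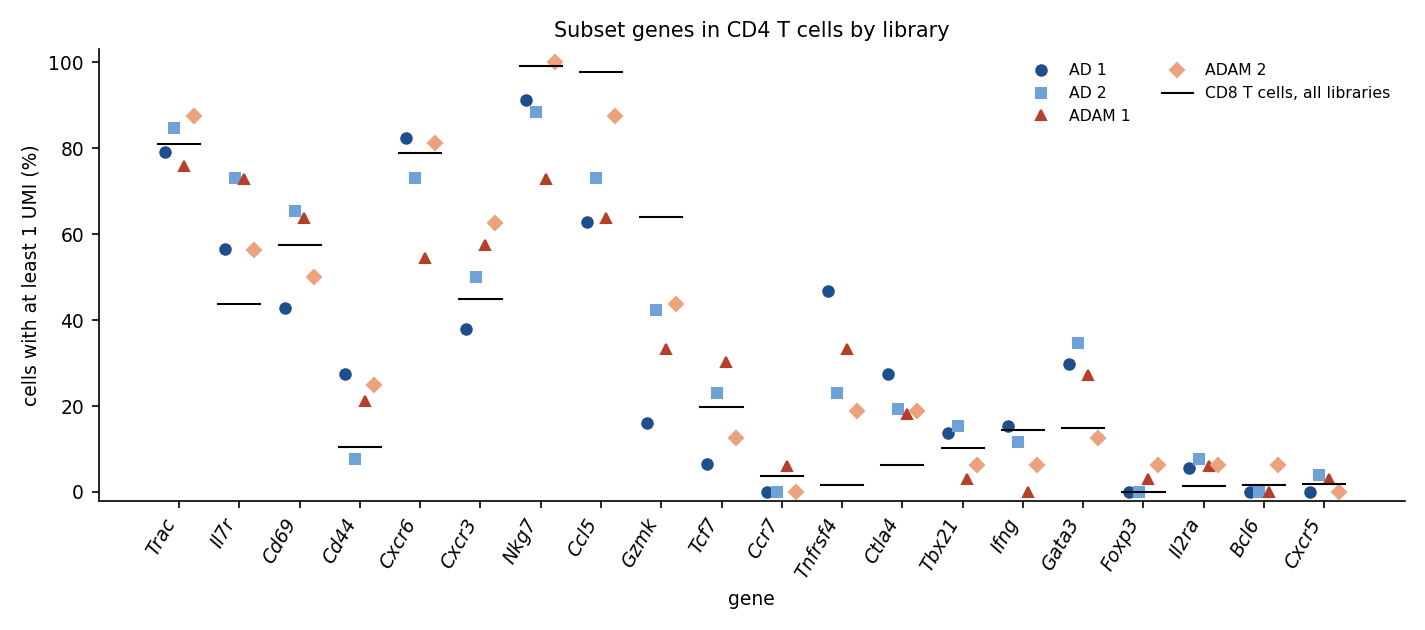
Percent of CD4 T cells with at least 1 UMI of each subset gene, 1 point per library, with a black line at the percent over all CD8 T cells. Trac, Il7r, Cxcr6, Nkg7 and Ccl5 are found in more than 50% of cells of every library, while Foxp3, Bcl6, Ccr7 and Cxcr5 lie near 0.

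The cells were mixed in their effector genes. Ccl5 was found in 132 of 199 cells, Gzmk in 49, and 45 of those 49 also held Ccl5. Tnfrsf4 was found in 78 cells, of which 38 held Ccl5 and 8 held Gzmk. Ccl5 UMIs were found in 9.79% to 17.9% of microglia by library, against 62.9% to 87.5% of CD4 T cells. After thinning every cell to 1500 UMIs, Ccl5 was still found in 59.6% of CD4 T cells and 96.1% of CD8 T cells. Of 126 subset genes in the table, 54 were found in at least 10% of cells of every library, and 34 after thinning.

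A share of the interferon response genes was lower in CD4 than in CD8 T cells. Of 29 tested, 27 had a negative fold with a median of -0.71, 9 passed as lower and none as higher. Isg15, a ubiquitin-like antiviral protein, stood at 33.8, 132, 53.4 and 33.2 CPM against 172, 218, 186 and 163 CPM, a log2 fold of -1.94 (SE 0.24, adjusted p = 3.2e-13). Usp18, which dampens the interferon receptor, had a log2 fold of -2.55 (SE 0.53, adjusted p = 0.0002), and Ifit3 one of -1.73 (SE 0.29, adjusted p = 8.6e-07). The Usp18 call was lost without AD 1 (log2 fold -1.80, adjusted p 0.23), and that of Ifit3 lost without AD 1 (log2 fold -0.98, adjusted p 0.2). Rsad2, viperin, had 2 UMIs in CD4 and 264 in CD8 T cells, 9.80 times more per UMI counted in CD8 T cells (95% interval 2.69 to 81.3, counting error only). The group's calls depended on the setting: without AD 1, with DESeq2, and over cell numbers, 1 member passed. Cxcl10, an interferon-induced chemokine, had 1 UMI in CD4 T cells and 976 in CD8 T cells, of which 163 sat in 1 cell.

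Mitochondrial genes and stress genes also differed. Of 13 mitochondrially encoded genes, 12 had a negative fold, 8 passed as lower and the median was -0.40; 2 passed with DESeq2's size factors, and none with DESeq2 or over cell numbers. Among 25 tested immediate early genes, which dissociation of tissue can also induce, 7 passed as higher and 2 as lower. Dusp1, a phosphatase of that group, stood at 153, 71.2, 53.4 and 116 CPM against 24.3, 26.3, 35.2 and 67.7 CPM, a log2 fold of 1.47 (SE 0.27, adjusted p = 9.8e-06), which was lost without AD 1 (log2 fold 0.72, adjusted p 0.71). Microglial markers stood at 2450 to 4404 CPM in CD4 and 2883 to 5233 CPM in CD8 sums, and 1 of 16, Sparc, passed as lower. The part of dissociation and of microglial RNA in these gate differences was not tested.

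Between genotypes, the CD4 T cells of ADAM cortices held fewer transcripts of Ifitm1, Ifitm2, Ifitm3 and galectin 3, and more of Ctla2a. They also held fewer of 4 of 14 tested activation and memory genes. Of 1463 genes that passed the filter on low counts, 22 passed an adjusted p under 0.05, a background of 1.5%, with 19 lower (1.3%) and 3 higher (0.205%) in ADAM. At an unadjusted p under 0.05 it was 8.48%, and the median of all tested genes was -0.01 on the log2 scale. Of all tested genes, 19.6% had both ADAM libraries under both AD libraries and 14.6% both above. The number of calls moved widely: it was 8 without AD 1, 40 without AD 2, 6 without ADAM 1, 4 without ADAM 2, 1 with DESeq2, which gave 27 genes an unadjusted p under 0.05, and 0 over cell numbers, where edgeR also gave 27. AD 1 gave 124 of the 150 AD cells. Of the 22 genes, 7 passed without AD 1, 21 without AD 2, 4 without ADAM 1 and 2 without ADAM 2.

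Ifitm1, Ifitm2 and Ifitm3 encode small membrane proteins that block virus entry, are induced by interferon, and lie in 1 cluster on chromosome 7. They are near copies of each other, so some reads may be split among them. In the mm10 build (GENCODE annotation), Ifitm2 spans chr7:140954837-140955987 on the minus strand, Ifitm1 chr7:140967221-140969825 on the plus strand and Ifitm3 chr7:141009586-141010770 on the minus strand.

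Because the 3 genes moved together, their promoters are shown, 250 bases before to 30 after the RefSeq start, 5′ to 3′ in the gene's direction (RefSeq sequences, GRCm38.p6). Capitals mark matches, on either strand, to an interferon-stimulated response element core, GAAANNGAAA, or a gamma-activated site core, TTCNNNGAA.
Ifitm1 (chr7:140967826-140968105, plus strand): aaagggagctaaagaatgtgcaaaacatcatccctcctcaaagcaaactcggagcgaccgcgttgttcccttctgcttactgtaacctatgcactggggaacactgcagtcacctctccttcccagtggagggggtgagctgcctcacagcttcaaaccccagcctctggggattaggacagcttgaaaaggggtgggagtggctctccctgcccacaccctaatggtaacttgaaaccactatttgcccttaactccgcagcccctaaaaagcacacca
Ifitm2 (chr7:140955932-140956211, minus strand): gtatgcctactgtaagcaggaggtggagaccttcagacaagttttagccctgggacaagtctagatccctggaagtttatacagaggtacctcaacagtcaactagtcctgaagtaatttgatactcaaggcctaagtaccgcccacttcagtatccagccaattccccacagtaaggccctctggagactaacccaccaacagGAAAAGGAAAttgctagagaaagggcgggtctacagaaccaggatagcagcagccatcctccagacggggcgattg
Ifitm3 (chr7:141010715-141010994, minus strand): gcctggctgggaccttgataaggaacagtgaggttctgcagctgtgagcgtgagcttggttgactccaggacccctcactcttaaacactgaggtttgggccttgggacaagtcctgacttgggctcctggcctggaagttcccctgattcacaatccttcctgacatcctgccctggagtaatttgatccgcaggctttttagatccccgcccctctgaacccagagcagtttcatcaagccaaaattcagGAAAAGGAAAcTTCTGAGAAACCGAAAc
The Ifitm2 window holds 1 response element core at bases 205 to 214. The Ifitm3 window holds 2, at bases 253 to 262 and 270 to 279, the second overlapping a gamma-activated core at bases 264 to 272. The letters of neither core are in the Ifitm1 window. That window is placed by the RefSeq start and lies inside the GENCODE span given above, so the bases before the GENCODE start were not searched. Of all 32851 promoter windows of this length, 3.28% hold the first core and 7.83% the second.

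Ifitm1 stood at 977, 458, 0 and 16.6 CPM in CD4 T cells, high in both AD libraries and at or near 0 in both ADAM libraries, a log2 fold of -6.80 (SE 0.59, adjusted p = 8e-27). The UMIs were 376, 45, 0 and 1 and sat in few cells: 20 of 124, 2 of 26, 0 of 33 and 1 of 16. The summed UMIs gave a ratio of AD to ADAM of 150, with an exact 95% interval of 26.9 to 5958. That interval covers counting error only, not the spread between cells or libraries. In AD 1, 86 of the 376 UMIs came from 1 cell. In AD 2, 44 of the 45 UMIs came from 1 cell, so the AD 2 level rests on that cell. Ifitm1 passed in all 13 alternative settings in which it was tested; over cell numbers it fell under the filter and was not tested.

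Ifitm2 stood at 1026, 264, 35.6 and 16.6 CPM, a log2 fold of -4.53 (SE 0.45, adjusted p = 6.9e-21), with a UMI in 46, 3, 4 and 1 cells. Both AD libraries were high, but the share of cells was high in AD 1 alone, 37.1% against 11.5%, 12.1% and 6.25%. In AD 2, 15 of the 26 Ifitm2 UMIs came from 1 cell, which also held Ifitm1, so much of that level rests on it. Ifitm3 stood at 288, 203, 71.2 and 82.9 CPM, a log2 fold of -1.73 (SE 0.41, adjusted p = 0.0029), with a UMI in 28.2%, 23.1%, 12.1% and 25.0% of cells. For Ifitm3 the genotypes did not overlap in CPM, while the share of cells did. Ifitm10 ran the other way, at 28.6, 20.3, 53.4 and 99.5 CPM, on 11, 2, 6 and 6 UMIs. The Ifitm2 call was lost without ADAM 1 or ADAM 2 (log2 fold -5.28 to -4.22, adjusted p 0.42 to 0.58), and that of Ifitm3 was lost without AD 1, ADAM 1 or ADAM 2 (log2 fold -1.81 to -1.40, adjusted p 0.12 to 0.65).

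Other T cells of the same libraries gave Ifitm1 and Ifitm2 at other levels. In CD8 T cells, Ifitm1 stood at 16.7, 1.13, 1.57 and 15.2 CPM, overlapping between genotypes, and Ifitm2 at 8.58, 4.14, 13.6 and 83.8 CPM, lower in both AD libraries. That Ifitm2 level was highest in ADAM 2, where 79.9% of CD8 T cells held an S100a9 UMI. Microglia of ADAM 2 were also highest for Ifitm1 (1.94, 1.24, 0.340 and 11.5 CPM) and Ifitm2 (54.4, 29.2, 49.4 and 70.9 CPM). The cause was not tested. In cells with Cd3 and neither Cd4 nor Cd8, the group just outside the rule, Ifitm1 stood at 188, 183, 0 and 13.0 CPM and Ifitm2 at 346, 73.0, 33.4 and 23.4 CPM. In CPM both AD libraries lay above both ADAM libraries there too. The share of those cells with a UMI overlapped between genotypes, at 3.83%, 3.85%, 0% and 4.10% for Ifitm1 and 11.5%, 4.81%, 4.14% and 7.38% for Ifitm2. In AD 2, 37 of their 60 Ifitm1 UMIs sat in 1 cell. Ifitm3 stood at 120, 140, 78.0 and 83.1 CPM in that group, without overlap of the genotypes. The difference between CD4 and CD8 T cells in their genotype response was tested as an interaction, which 20 of 8720 genes passed (0.229%, and 4.58% at an unadjusted p under 0.05), and was -6.63 (SE 0.86, adjusted p = 8.2e-11) for Ifitm1 and -7.04 (SE 0.52, adjusted p = 6.1e-37) for Ifitm2 on the log2 scale. The Ifitm1 interaction was lost without ADAM 2 (value -10.28, adjusted p 0.39) and over cell numbers (-4.52, adjusted p = 1), and that of Ifitm2 missed the threshold with DESeq2.

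**Figure D4:**
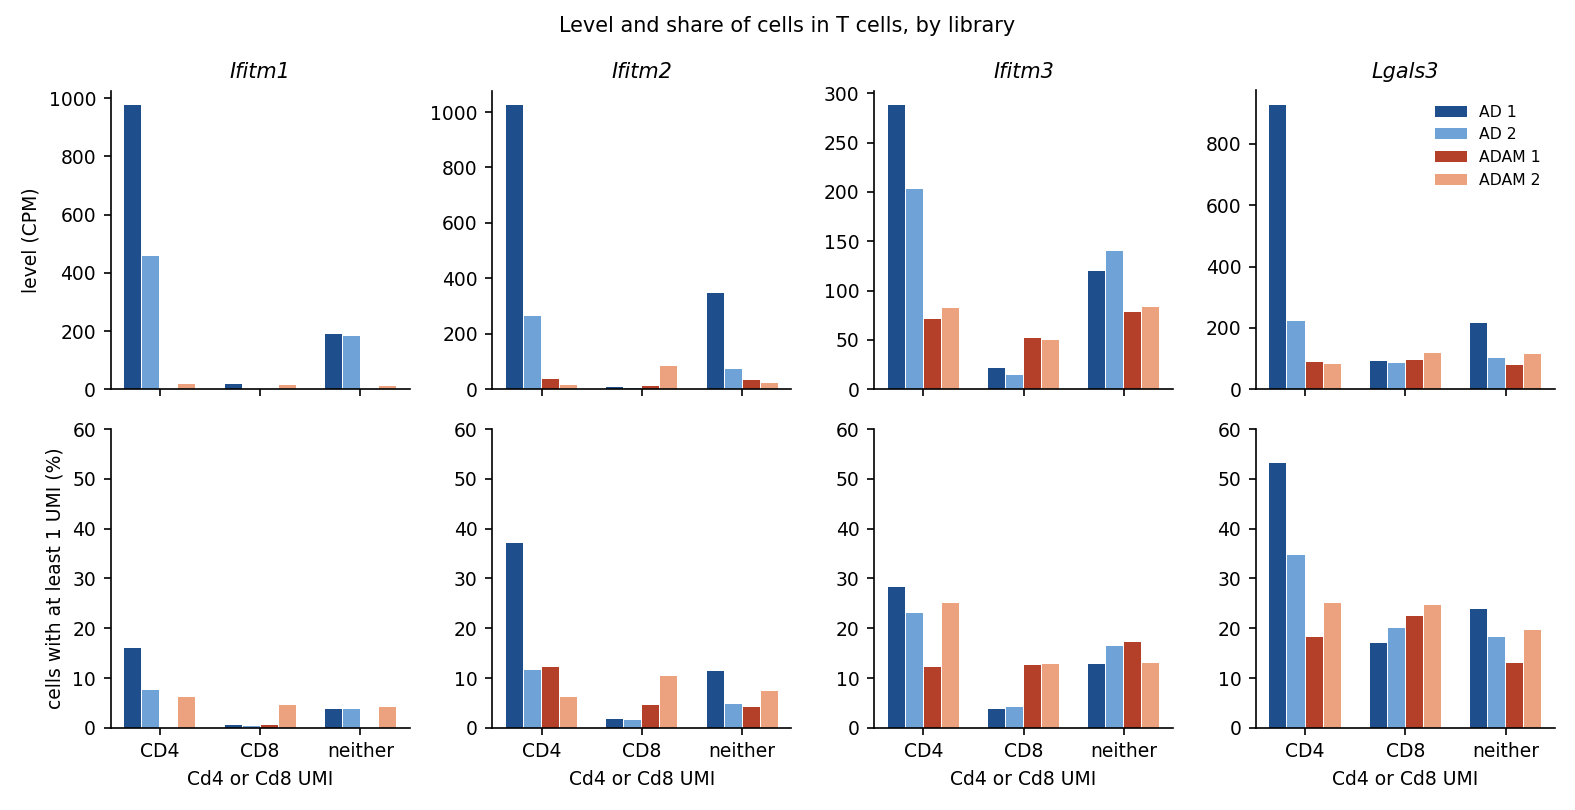
Level in CPM (upper row) and percent of cells with at least 1 UMI (lower row) of Ifitm1, Ifitm2, Ifitm3 and Lgals3, 1 bar per library, for CD4 T cells, CD8 T cells and cells with Cd3 but neither Cd4 nor Cd8. In CPM, both AD libraries of CD4 T cells lie above both ADAM libraries for all 4 genes, while in CD8 T cells they do so for none; in percent of cells, Ifitm2 and Ifitm3 overlap between the genotypes in CD4 T cells.

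Lgals3, galectin 3, a sugar-binding protein of activated cells and macrophages, followed Ifitm1, Ifitm2 and Ifitm3. It stood at 928, 224, 89.0 and 82.9 CPM, high in AD 1, lower in AD 2 and lowest in ADAM, a log2 fold of -2.81 (SE 0.36, adjusted p = 6e-12). A UMI was found in 53.2%, 34.6%, 18.2% and 25.0% of cells, so both AD libraries were also higher in share. CD8 T cells had 92.0, 85.0, 95.0 and 117 CPM, with no AD library above both ADAM libraries. Cells with Cd3 and neither Cd4 nor Cd8 had 216, 100, 80.2 and 114 CPM, overlapping between genotypes. The Lgals3 call was lost without AD 1, ADAM 1 or ADAM 2 (log2 fold -2.85 to -1.34, adjusted p 0.69 to 0.99).

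In AD 1, the 20 cells with an Ifitm1 UMI can be described beside the other 104 CD4 T cells, with no test, since Ifitm1 chose them. Their median was 3517 UMIs against 2679. They held more Ifitm2, 3161 against 502 CPM, more Lgals3, 2542 against 531 CPM, more Lgals1, 3964 against 1065 CPM, and more Klf2, 1857 against 728 CPM. They held less Ccl5, 1027 against 6215 CPM, less Cxcr3, 39.5 against 230 CPM, and no Gzmk UMI, against 32 UMIs in the other cells. Tnfrsf4 stood at 527 and 395 CPM, and Nkg7 at 2318 and 2150 CPM. S100a8, a neutrophil gene, had no UMI in the 20 cells and 2 UMIs in the other 104, too few to compare.

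Some effector memory genes were lower in ADAM CD4 T cells. Of 14 tested activation and memory genes, 4 passed as lower, Crip1, Lgals1, S100a4 and S100a6, and none as higher, with a median of -0.45. Lgals1, galectin 1, stood at 1637, 793, 543 and 415 CPM, a log2 fold of -1.31 (SE 0.28, adjusted p = 0.0005). S100a4, a calcium-binding protein of migrating memory cells, stood at 1447, 844, 578 and 348 CPM, a log2 fold of -1.25 (SE 0.28, adjusted p = 0.0012), and S100a10, a partner of annexin 2, at 2754, 1362, 1183 and 497 CPM, a log2 fold of -1.22 (SE 0.27, adjusted p = 0.0011). For Lgals1, S100a4 and S100a10, both ADAM libraries lay under both AD libraries, whereas S100a6 overlapped, at 6112, 2074, 2464 and 1227 CPM. In AD 2, 1 cell held 28 of the 78 Lgals1 UMIs and 1 cell 29 of the 83 S100a4 UMIs. For S100a10 it was 17 of 134. Whether AD 2 stays above ADAM 1 without such cells was not tested. The Lgals1 call was lost without AD 1, ADAM 1 or ADAM 2 (log2 fold -1.53 to -0.68, adjusted p 0.12 to 0.99), that of S100a4 lost without AD 1, ADAM 1 or ADAM 2 (log2 fold -1.69 to -0.79, adjusted p 0.063 to 0.69) and that of S100a10 lost without AD 1 or ADAM 2 (log2 fold -0.78 to -0.61, adjusted p 0.9 to 0.92). The S100a6 call was lost without AD 1, ADAM 1 or ADAM 2 (log2 fold -1.69 to -0.11, adjusted p 0.12 to 0.99), and that of Crip1 was lost without AD 1, ADAM 1 or ADAM 2 (log2 fold -1.03 to -0.70, adjusted p 0.38 to 0.92). Over cell numbers the Lgals1 fold was 0.14, with a UMI in 64.0% of AD and 73.5% of ADAM cells. The genotypes overlapped for Lgals1, S100a4, S100a6, S100a10 and Crip1 in cells with Cd3 and neither Cd4 nor Cd8. Lgals1 stood there at 758, 326, 417 and 680 CPM and S100a4 at 518, 228, 299 and 402 CPM.

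Klf2, the transcription factor that drives S1pr1 and exit from tissue, stood at 951, 793, 374 and 166 CPM, with both AD libraries above both ADAM libraries and a log2 fold of -1.57 (SE 0.29, adjusted p = 2.3e-05). It passed in 11 of 14 alternative settings and was lost without ADAM 2 (log2 fold -1.20, adjusted p 0.21). A UMI was found in 42.0% of AD and 34.7% of ADAM cells. In CD8 T cells Klf2 stood at 250.4, 269, 315 and 164 CPM, and the interaction was -1.64 (SE 0.28, adjusted p = 6.7e-06). Cells with Cd3 and neither Cd4 nor Cd8 had 458, 286, 201 and 280 CPM, without overlap of the genotypes.

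Cytotoxic genes fell in part. Of 12 tested, 4 passed as lower, Ccl5, Cst7, Klrd1 and Nkg7, none as higher, and the median was -0.68. Ccl5 stood at 5192, 7422, 2259.6 and 3316 CPM, with both ADAM libraries under both AD libraries and a log2 fold of -1.15 (SE 0.27, adjusted p = 0.0026). Nkg7 stood at 2183, 1932, 783 and 1144 CPM, a log2 fold of -1.08 (SE 0.27, adjusted p = 0.0066). Klrd1, the CD94 receptor chain, stood at 161, 336, 97.9 and 16.6 CPM, a log2 fold of -1.58 (SE 0.43, adjusted p = 0.02), and its ADAM 2 level rests on 1 UMI. The Ccl5 call was lost without ADAM 1 or ADAM 2 (log2 fold -1.45 to -0.88, adjusted p 0.23 to 0.88), that of Nkg7 lost without ADAM 1 or ADAM 2 (log2 fold -1.37 to -0.80, adjusted p 0.21 to 0.89) and that of Klrd1 lost without AD 2 or ADAM 2 (log2 fold -1.17 to -1.12, adjusted p 0.36 to 0.52). Ccl5 was found in 64.7% of AD and 71.4% of ADAM cells, and over cell numbers its fold was 0.08, so the share of cells with Ccl5 ran the other way. Cells with Cd3 and neither Cd4 nor Cd8 overlapped between genotypes for Ccl5 (3783, 5943, 2050 and 5533 CPM). They also did for Nkg7 (1683, 1512, 963 and 1514 CPM). Klrd1 was lower in both AD libraries there (172, 161, 205 and 283 CPM). Tbx21 and Ifng lay under the filter; their UMIs were found in 21 and 22 of 150 AD cells and in 2 and 1 of 49 ADAM cells, with no test.

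**Figure D5:**
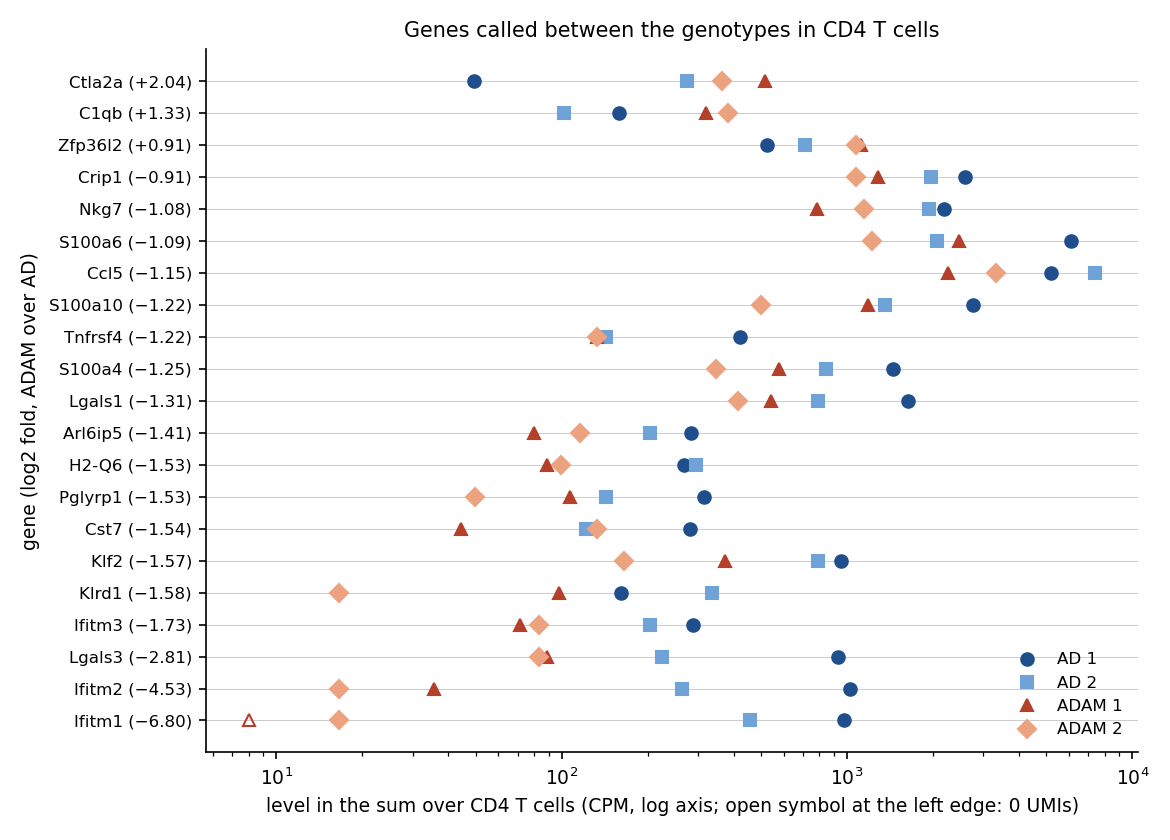
CPM in CD4 T cells of each library for 21 of the 22 genes that passed between the genotypes, on a log axis, 1 row per gene with the log2 fold of ADAM over AD beside its name; an open symbol at the left edge marks 0 UMIs. The genotypes overlap for S100a6 and Cst7 and not for the other 19 genes, and AD 1 is the highest library for most genes that were lower in ADAM.

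Further genes lower in ADAM were few. Pglyrp1, a peptidoglycan-binding protein, stood at 314, 142, 107 and 49.7 CPM, a log2 fold of -1.53 (SE 0.39, adjusted p = 0.009). H2-Q6, a class Ib MHC gene with near copies, stood at 268, 295, 89.0 and 99.5 CPM, a log2 fold of -1.53 (SE 0.39, adjusted p = 0.0089), and was the 1 of 14 tested MHC class I genes that passed. Arl6ip5 stood at 283, 203, 80.1 and 116 CPM, a log2 fold of -1.41 (SE 0.39, adjusted p = 0.023). All 3 calls were lost without AD 1, ADAM 1 or ADAM 2, with adjusted p-values of 0.12 to 0.99 for Pglyrp1, 0.21 to 0.45 for H2-Q6 and 0.21 to 0.99 for Arl6ip5. Tnfrsf4 stood at 421, 142, 133 and 133 CPM, with AD 1 high and the other 3 libraries alike, a log2 fold of -1.22 (SE 0.35, adjusted p = 0.034) that was lost without AD 1, ADAM 1 or ADAM 2 (log2 fold -1.21 to -0.08, adjusted p 0.27 to 0.99). Cst7, a cystatin, overlapped between genotypes at 281, 122, 44.5 and 133 CPM, and its call was lost without AD 1 or ADAM 1 (log2 fold -0.71 to -0.61, adjusted p 0.91 to 0.99).

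The 3 genes that were higher in ADAM CD4 T cells were Ctla2a, C1qb and Zfp36l2. Ctla2a, a cathepsin inhibitor of activated T cells with a near copy in Ctla2b, lies at chr13:60934155-60936625. It stood at 49.4, 275, 516 and 365 CPM, with both ADAM libraries above both AD libraries, and a log2 fold of 2.04 (SE 0.33, adjusted p = 1.5e-07). A UMI was found in 9.68%, 26.9%, 60.6% and 56.2% of cells, and in AD 2 20 of 27 UMIs sat in 1 cell. Zfp36l2, an RNA-binding protein that destabilises cytokine transcripts, stood at 522, 712, 1121 and 1078 CPM, a log2 fold of 0.91 (SE 0.27, adjusted p = 0.046), with a UMI in 70.2%, 69.2%, 97.0% and 100% of cells. The Ctla2a call was lost without AD 1, ADAM 1 or ADAM 2 (log2 fold 0.74 to 2.17, adjusted p 0.91 to 0.99), and that of Zfp36l2 was lost without AD 1, ADAM 1 or ADAM 2 (log2 fold 0.65 to 0.92, adjusted p 0.34 to 0.89). C1qb, a complement gene of microglia, stood at 159, 102, 320.3 and 381 CPM, a log2 fold of 1.33 (SE 0.32, adjusted p = 0.0046) that was lost without ADAM 1 or ADAM 2 (log2 fold 1.22 to 1.49, adjusted p 0.12 to 0.21). In CD8 T cells both ADAM libraries also lay above both AD libraries for all 3 genes, at 174, 165, 359.5 and 297 CPM for C1qb, 302, 321, 409 and 378 CPM for Ctla2a and 539, 609, 630.3 and 671 CPM for Zfp36l2. Among cells with Cd3 and neither Cd4 nor Cd8, that held for C1qb, at 107, 164, 314 and 301 CPM. The genotypes overlapped there for Ctla2a (268, 386, 366 and 454 CPM) and Zfp36l2 (643, 949, 1072 and 805 CPM). In CD4 T cells 8 of 9 tested microglial markers had a positive fold, with a median of 0.66. The part of microglial RNA in the other calls was not tested beyond leaving out cells with a microglial UMI, after which 13 genes passed.

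What did not pass is as wide. Of 20 tested T cell receptor and signalling genes, 9 had a positive and 11 a negative fold and none passed, Trac with 0.16 (SE 0.27, adjusted p = 0.99) and Trbc2 with -0.25 (SE 0.26, adjusted p = 0.95). None of 10 type 1 genes, 10 trafficking genes, 12 cytokine receptor genes or 11 mitochondrial genes passed. Cxcr6 had a log2 fold of -0.52 (SE 0.27, adjusted p = 0.6), Il7r one of 0.19 (SE 0.28, adjusted p = 0.99) and Cd69 one of 0.45 (SE 0.29, adjusted p = 0.73). With 2 libraries per genotype and as few as 16 cells in one, folds of these sizes were not detectable at this depth. Of 8 tested interferon response genes, Ifitm3 alone passed, while Ifi27l2a had a log2 fold of 0.18 (SE 0.27, adjusted p = 0.99). Ifitm1 and Ifitm2, which passed and are also induced by interferon, were not in that list.

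Axl and Mertk themselves were nearly silent in CD4 T cells. Axl was found in 1, 1, 0 and 0 cells and Mertk in 2, 0, 1 and 1 cells, 1.01% and 2.01% of all CD4 T cells. CD8 T cells held them at 1.10% and 2.45%, and microglia at 14.9% and 65.0%, over all libraries. For Axl the microglial share was 25.6%, 24.6%, 3.11% and 4.17% by library, so 14.9% describes neither genotype. At these shares an expression by CD4 T cells cannot be told apart from RNA of microglia in the same droplets.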

How the data were processed

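Per the labels' protocols, cortices of 18-month-old mice were digested, cleared on Percoll and sorted for CD45, and 10x 3′ v3.1 libraries were made. Counting with Cell Ranger (3.1.0) on mm10 and use of Seurat (3.2.1.9002) are per the submitters' processing notes. The deposited values are UMI counts per gene and cell, 16798 genes by 15451 cells, and the authors deposited a class for 14628 of them. The deposited percent of mitochondrial UMIs per cell was not used for filters. The 823 cells with the authors' general doublet mark carry no class and were left out; 216 microglia with a separate mark as doublets with T cells keep their class and stayed in the microglial values. UMIs were summed per library and cell group and tested with edgeR 4.0.16 (R 4.3.3; quasi-likelihood, robust, TMM, filterByExpr minimum count 10, Benjamini-Hochberg threshold 0.05). CPM are UMIs per 1000000 of the sum, without TMM; folds are from the fit. The 6 rule genes stayed in library sizes and out of the tests. CD4 against CD8 and the interaction had the library as a block. Tests were checked on simulated counts. Members, lists and tests were chosen with earlier results of these data known. Named were up to 10 (genotype), 12 (CD4 against CD8) or 5 (interaction) called genes per direction, called list members, the 2 highest of each list and fixed subset genes; Lgals7 was chosen after its values were seen. Some genes that this rule names are not reported here. Alternatives were other scaling, DESeq2 1.42.0, limma-voom 3.58.1, filters, gates, a replicate block, libraries left out, thinning to 1500 UMIs and, chosen after seeing the data, numbers of cells with a UMI. Gene positions come from GENCODE in GRCm38 and matched 16580 names once. Where labels name biological replicates, p-values measure the spread between these pools.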

Additional observations from a re-analysis of the deposited data

Results flagged for a closer look

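For 20 genes the log2 difference between ADAM and AD itself differed between CD4 and CD8 T cells, by the interaction test in edgeR (adjusted p under 0.05 over 8720 genes). Values are the ADAM over AD log2 fold in CD4 T cells minus that in CD8 T cells. Among genes already described, the value was -7.04 for Ifitm2, -6.63 for Ifitm1, -3.24 for Ifitm3, -3.02 for Lgals3, -1.31 for Lgals1 and -1.64 for Klf2. It was -1.36 for S100a6, -1.25 for S100a10 and -0.88 for Crip1. For cytotoxic genes it was -1.0 for Ccl5, -1.01 for Nkg7, -1.84 for Klrd1, -1.72 for Cst7 and -2.54 for Ccl4, and for the MHC gene H2-Q6 it was -1.55. The only positive values were 1.63 for Ctla2a, 2.64 for Ikzf2 and 8.91 for Mgst2. Of the 20 genes, 7 passed without AD 1, 17 without AD 2, 10 without ADAM 1 and 7 without ADAM 2. Those lost without AD 1 include S100a6 (-0.65, adjusted p = 0.56), Lgals1 (-0.66, adjusted p = 1) and Ctla2a (0.36, adjusted p = 1).

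Runx2, a transcription factor of the Runx family, had 34, 9, 0 and 0 UMIs in CD4 T cells, in 27 and 6 AD cells. Over the summed libraries it was 5.12-fold higher in AD with 3 counts put in place of the 0 of ADAM. The exact 95% interval of the ratio, which covers counting error only, began at 3.99. CD8 T cells held it at 23.4, 28.9, 26.2 and 30.4 CPM without such a split, and the interaction was -9.70, a fitted value that depends on the prior count. Cells with Cd3 and neither Cd4 nor Cd8 held Runx2 at 22.7, 15.2, 15.6 and 31.2 CPM, overlapping between genotypes. Mgst2, a glutathione transferase of leukotriene synthesis, had 0, 0, 3 and 7 UMIs, while CD8 T cells held 39.1, 36.5, 37.3 and 41.4 CPM. With 3 counts put in place of the 0 of AD, Mgst2 was 9.33-fold higher in ADAM, and its exact 95% interval began at 6.27. Cells with Cd3 and neither Cd4 nor Cd8 held Mgst2 at 21.1, 27.4, 22.3 and 41.5 CPM, overlapping between genotypes. Anxa1, annexin A1, stood at 148, 61.0, 17.8 and 16.6 CPM in CD4 T cells, with an interaction of -3.83. Its ratio of AD to ADAM was 7.51 (exact 95% interval 2.45 to 37.4, counting error only). Cells with Cd3 and neither Cd4 nor Cd8 held Anxa1 at 101, 85.2, 71.3 and 75.3 CPM, without overlap of the genotypes. Ikzf2, Helios, stood at 54.6, 30.5, 89.0 and 82.9 CPM in CD4 and 82.5, 15.0, 15.7 and 20.3 CPM in CD8 T cells, where AD 1 was the highest library. The CD4 levels rest on 21, 3, 10 and 5 UMIs. In ADAM 1, 1 cell held 5 of the 10 UMIs, and in ADAM 2, 1 cell held 4 of the 5. The share of CD4 T cells with an Ikzf2 UMI overlapped between genotypes, at 12.1%, 7.69%, 12.1% and 12.5%. The Runx2 call was lost without AD 1, ADAM 1 or ADAM 2 (value -9.91 to -9.49, adjusted p 0.12 to 0.39), that of Mgst2 lost without AD 1 or ADAM 2 (value 7.87 to 8.75, adjusted p 0.6 to 1), that of Anxa1 lost without AD 1, ADAM 1 or ADAM 2 (value -4.37 to -3.51, adjusted p 0.054 to 1) and that of Ikzf2 lost without AD 1, ADAM 1 or ADAM 2 (value 1.22 to 2.86, adjusted p 0.14 to 1).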

How the results depend on the processing

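Leaving out 1 library gave 4 to 40 genes between genotypes, 66 to 214 between CD4 and CD8 T cells, and 9 to 21 for the interaction. The log2 difference in CD4 T cell number then ran from -2.51 to 0.23, reversed without AD 1. Between genotypes, 1 gene passed with DESeq2, 10 with a minimum count of 5, 14 with limma-voom (7 lower and 7 higher), 6 with at least 2 Cd4 UMIs, 13 without cells that hold a microglial UMI and 0 over cell numbers. Between CD4 and CD8 T cells, 51 passed with DESeq2, 147 with at least 2 Cd4 or Cd8 UMIs, 186 without cells that hold a microglial UMI, 87 of 1744 after thinning to equal totals and 118 over cell numbers. For the interaction, 2 passed with DESeq2 and 2 over cell numbers. Other settings kept these counts within 1.5 times. Over cell numbers the folds of Ccl5 (0.082) and Lgals1 (0.14) and the Ccl5 interaction (0.095) were reversed. The cause was not tested. After thinning, 34 subset genes were found in at least 10% of cells of every library. Replicate numbers are shared between genotypes, but same-numbered libraries did not deviate together (correlation -0.01 in CD4 and -0.05 in CD8 T cells over 1463 genes), so they do not pair samples. The replicate block gave 17 genes between genotypes and 17 for the interaction. The Foxp3 comparison was not run, since no library had more than 1 such cell. With 16 to 124 cells per library, low genes stayed under the filter.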

Other observations

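Lgals7, galectin 7, is otherwise known from skin-like epithelium and among CD4 T cells was found in 1 library alone. It had 139 UMIs in 40 of the 124 CD4 T cells of AD 1 and none in AD 2, ADAM 1 or ADAM 2, where 0 of 26, 0 of 33 and 0 of 16 cells held it. Of the 40 cells, 30 also held Ifitm2 and 27 held Tnfrsf4. In AD 1 it stood at 975 CPM in the 20 cells with an Ifitm1 UMI and at 210.4 CPM in the other 104. In the AD 1 cells with Cd3 and neither Cd4 nor Cd8 it stood at 109 CPM, with 67 UMIs, while such cells of the other libraries held 0, 2 and 2. CD8 T cells held 4, 2, 0 and 2 UMIs. The value comes from 1 pool of cortices and has no replicate.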
